A study of Homo sapiens with 15 samples.

Results

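Human tandem multicopy gene families were examined in MT-2 cells treated with ascorbic acid (AA) or interferon-alpha (IFN-α). Members were the transcript clusters, the units for which a Human Gene 1.0 ST array gives an expression value, that carried a gene symbol starting with USP17L, REXO1L, PRAMEF, NBPF, GOLGA6, GOLGA8, TBC1D3, DEFB, SPDYE, POTE or FAM90A. These 11 families held 221 of the 28926 clusters, and since copies of a gene often had exactly the same values on all arrays, identical rows were counted once, leaving 184 of 28380 distinct clusters. The families were chosen by the change of USP17L clusters with AA in these same arrays, so all values under AA are a description and carry no test as evidence.

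MT-2 is an established HTLV-1-transformed CD4+ T-cell line. Cells were left untreated, received AA at 10, 50 or 100 µg/ml, called low, intermediate and high dose here, or received 1000 IU/ml IFN-α, and RNA was taken after 48 h. Each of the 5 groups had 3 arrays, 1 from each of 3 separate RNA experiments, numbered 1 to 3 here after the tags shared by their titles, which gave 15 arrays in all. The tags of experiments 2 and 3 differ only in a closing letter. All cells were the same line and carried the virus, and the same untreated arrays were the controls of every comparison. Values are log2 expression levels, so that a difference of 1 is a doubling.

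Tandem families arose by repeated duplication of a stretch of DNA, and their copies often remain nearly identical, so that a probe made for one copy also binds transcripts of the others. Many of these copies are silent in most tissues, are read mainly in the germline or early embryo, or are pseudogenes. USP17L genes encode deubiquitinating enzymes, which take ubiquitin off proteins, and REXO1L loci are copies related to an RNA exonuclease gene. For 139 of the 184 clusters the annotation named several genes, against 45 with a single symbol, and a value below therefore belongs to a group of copies rather than to 1 locus. The 8 distinct USP17L clusters all carried the same 8 symbols. The prefix TBC1D3 also took in TBC1D30, TBC1D31 and TBC1D32, which are separate genes and not copies of TBC1D3.

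The likeness between copies can be seen in their promoters. Of the 158 member symbols, 94 had an entry among the RefSeq promoters (build GRCh38.p14, 250 bases before to 50 bases after the start), while the USP17L and REXO1L symbols had 0. The promoters of GOLGA8K and GOLGA8J, a pair of golgin-like copies, and of GOLGA8B are shown because their clusters differed from untreated in opposite directions at high dose in experiment 3, but not in experiment 1, as described further on. GOLGA8K lies at chr15:32403243-32403542 on the minus strand, GOLGA8J at chr15:30082705-30083004 on the plus strand and GOLGA8B at chr15:34583602-34583901 on the minus strand. The capital marks the base at which GOLGA8J differed from GOLGA8K.
GOLGA8K: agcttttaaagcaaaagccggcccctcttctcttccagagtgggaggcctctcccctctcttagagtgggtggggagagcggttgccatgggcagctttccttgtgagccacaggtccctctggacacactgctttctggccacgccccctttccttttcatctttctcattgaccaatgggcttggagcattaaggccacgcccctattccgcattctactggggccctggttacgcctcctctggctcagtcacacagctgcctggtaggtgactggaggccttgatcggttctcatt
GOLGA8J: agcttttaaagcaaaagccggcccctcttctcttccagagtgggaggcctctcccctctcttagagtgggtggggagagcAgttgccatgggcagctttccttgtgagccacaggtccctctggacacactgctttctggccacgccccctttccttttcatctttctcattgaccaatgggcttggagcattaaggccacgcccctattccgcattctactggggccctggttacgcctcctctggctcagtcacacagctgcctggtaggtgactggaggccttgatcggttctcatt
GOLGA8B: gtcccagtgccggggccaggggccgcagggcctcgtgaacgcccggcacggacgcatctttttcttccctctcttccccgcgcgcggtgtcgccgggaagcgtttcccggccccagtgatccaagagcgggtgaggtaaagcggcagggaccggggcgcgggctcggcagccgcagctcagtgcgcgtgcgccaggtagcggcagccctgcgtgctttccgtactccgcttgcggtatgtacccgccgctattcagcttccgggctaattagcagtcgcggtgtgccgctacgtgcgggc

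GOLGA8K and GOLGA8J shared 299 of 300 bases, whereas GOLGA8B matched GOLGA8K at 66 of 300 positions compared without gaps. GOLGA8B also held 38 CG dinucleotides, compared with 7 in GOLGA8K and 6 in GOLGA8J. The promoters of POTEG and POTEH, members of an ankyrin-repeat family, are shown as a second pair because copies on separate chromosomes were measured together. POTEG lies at chr14:19434292-19434591 on the minus strand and POTEH at chr22:15689776-15690075 on the plus strand, and capitals mark the 2 bases at which POTEH differed.
POTEG: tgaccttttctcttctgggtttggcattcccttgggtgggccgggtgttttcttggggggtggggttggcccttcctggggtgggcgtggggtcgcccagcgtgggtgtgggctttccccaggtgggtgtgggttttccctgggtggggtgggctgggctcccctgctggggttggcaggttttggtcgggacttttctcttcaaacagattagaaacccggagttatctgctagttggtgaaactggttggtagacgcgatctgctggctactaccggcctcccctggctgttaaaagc
POTEH: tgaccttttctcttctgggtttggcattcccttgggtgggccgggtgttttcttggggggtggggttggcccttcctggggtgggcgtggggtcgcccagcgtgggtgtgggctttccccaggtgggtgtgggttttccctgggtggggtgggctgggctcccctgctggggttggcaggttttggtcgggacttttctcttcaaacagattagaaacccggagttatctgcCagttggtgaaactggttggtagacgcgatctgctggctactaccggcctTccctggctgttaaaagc

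The 105 promoters of member genes held a median of 6 CG dinucleotides, compared with a median of 14 in all 35116 promoters of the same length. More than 20 were found in 11 member promoters (10.5%) and in 39.5% of all promoters. GOLGA8B was the only such promoter among the 12 of its family. POTE had 5 of 13, of the genes POTEB, POTEB3, POTEC and POTED, and NBPF had 4 of 14. POTEB, POTEC and POTED name a POTE subgroup that was higher at high dose in experiment 3. Letters of motifs were searched on both strands and at any position of the promoter. TATAAA, the core of the TATA box, occurred in 25 of the 105 member promoters (23.8%) and in 11.5% of all. Many of these promoters are near-identical copies, so the count is not one of independent sequences. Member promoters also had a lower median content of G and C, 52.3% compared with 58.7% in all promoters. Its part in the TATAAA count was not tested. The DUX4 motif occurred in 1 member promoter, that of PRAMEF8, and in 0.179% of all.

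The labelled cell type was checked against its markers. CD4 (10.93) and IL2RA (13.30), the interleukin receptor chain typical of HTLV-1-transformed cells, were bright in untreated cells, whereas the CD3 genes CD3D, CD3E and CD3G lay between 5.24 and 5.68, at percentiles from 24.8 to 32.8 of all clusters. CD2 read 7.43 and CD28 5.41. Markers of other cells ran from 3.97 to 6.50 for cytotoxic T cells, 4.56 to 6.46 for B cells and 3.97 to 6.63 for monocytes. The highest of each thus lay above the CD3 genes. Array medians ranged from 6.69 to 6.85. Each array correlated with the other 14 at a mean r between 0.991 and 0.995, except the high-dose AA array of experiment 3, with 0.976. Results under high-dose AA are therefore given per experiment and without this array, and its part in the values of experiment 3 was not tested. In bulk RNA, fewer cells of a type and less RNA per cell cannot be told apart.

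USP17L levels were higher at each higher dose of AA in all 8 clusters in experiments 2 and 3 and in 7 of 8 in experiment 1. In the cluster with the largest change (8094134) the untreated arrays read 7.24, 7.11 and 7.34 in experiments 1, 2 and 3. With low-dose AA the same cluster read 7.53, 7.43 and 8.07, with intermediate-dose AA 7.61, 7.76 and 8.36, and with high-dose AA 8.10, 8.02 and 10.35. Every AA array lay above every untreated array, and experiment 3 was the highest at each dose. The differences of high-dose AA from the untreated array of the same experiment were 0.86, 0.91 and 3.01.

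The other 7 USP17L clusters had differences between 0.19 and 0.62 in experiment 1, between 0.40 and 0.60 in experiment 2 and between 1.43 and 2.48 in experiment 3. All 8 were higher than every untreated array at intermediate and at high dose. Separation of this kind was found for 5.63% of all distinct clusters at intermediate dose and 6.71% at high dose. As the rule rests on this contrast, nothing is read from that count. The family divided by cluster. The 3 clusters 8144395, 8149243 and 8149356 had an untreated mean of 6.79 to 6.86 and a difference of 1.43 to 1.67 in experiment 3. The 4 clusters 8094116, 8094122, 8094130 and 8094134 had an untreated mean of 7.21 to 7.33 and a difference of 2.30 to 3.01, and cluster 8144397 had an untreated mean of 6.88 and a difference of 2.36. Over the 15 arrays the USP17L clusters varied together, with a median pairwise r of 0.98, and of 0.93 over the 14 arrays left without the high-dose array of experiment 3. These clusters share probes or near-identical copies, so the correlation is not one between independent genes.

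The REXO1L family was likewise chosen with its response to AA known. REXO1L levels were higher at each higher dose in 8 of 8 clusters in experiment 3, but in 3 of 8 in experiment 1 and 3 of 8 in experiment 2. The REXO1L1P cluster 8151629 read 7.50, 7.27 and 7.52 in the untreated arrays of experiments 1 to 3. It read 7.62, 7.98 and 8.91 with low-dose AA, 7.78, 8.30 and 9.20 with intermediate-dose AA and 8.20, 8.78 and 10.93 with high-dose AA. Each of these 9 values lay above the highest untreated value. Its differences at high dose were 0.70, 1.52 and 3.41.

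The second cluster with REXO1L1P alone (8151605, untreated mean 8.17) differed by 0.40, 1.30 and 2.72. The 6 clusters that also carry REXO1L2P differed by 0.55 to 0.64 in experiment 2 and by 1.91 to 2.63 in experiment 3. All 8 REXO1L clusters stood above every untreated array at intermediate and high dose, as did 5.63% and 6.71% of all distinct clusters. Nothing is read from that count either. In experiment 2, the REXO1L1P clusters had already reached a median difference of 0.68 at low dose, compared with 0.27 in the REXO1L2P clusters. In experiment 1 the order was turned, with 0.10 in the REXO1L1P clusters and 0.45 in the REXO1L2P clusters.

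**Figure D1:**
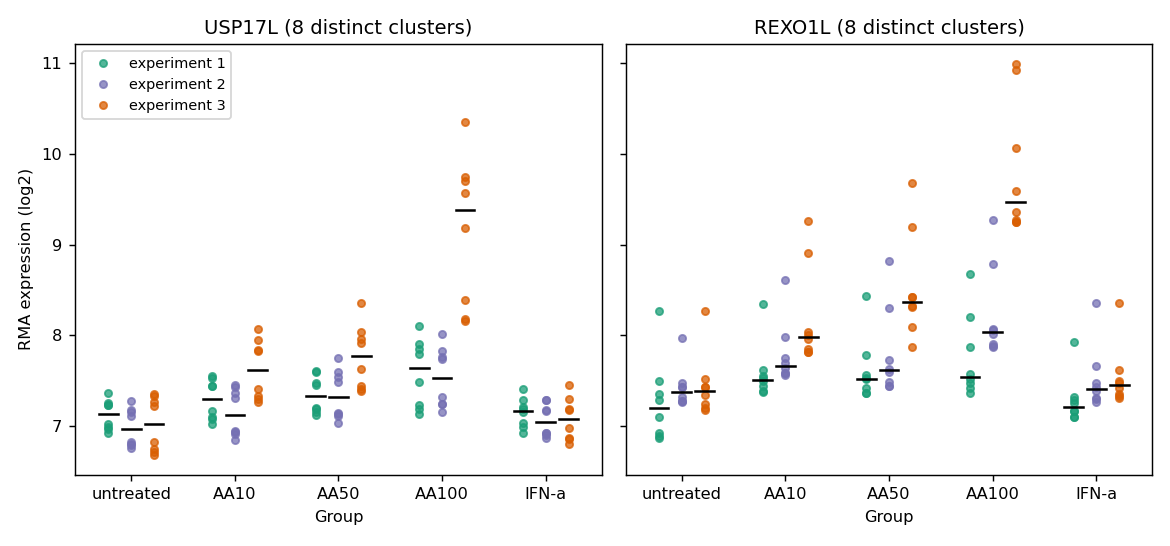
RMA log2 expression of each of the 8 distinct USP17L clusters (left) and 8 distinct REXO1L clusters (right) in the 15 arrays, by group (AA10, AA50 and AA100 are 10, 50 and 100 µg/ml AA, IFN-a is 1000 IU/ml IFN-α). Points are clusters, coloured by experiment, and black bars are the median over clusters of 1 array. Medians at AA100 are above untreated in all 3 experiments and farthest in experiment 3, though the REXO1L median of experiment 2 is lower at AA50 than at AA10. The IFN-a medians lie near the untreated ones, while the 2 REXO1L1P clusters had median IFN-a differences of −0.34, 0.39 and 0.09 in experiments 1, 2 and 3.

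A rise at every step from untreated through low and intermediate to high dose was seen in 18 of the 184 members in experiment 1, 31 in experiment 2 and 71 in experiment 3. Among all distinct clusters such a rise was seen in 5.60%, 5.75% and 13.9%. In all 3 experiments together, 13 members were higher at every step, among 47 of 28380 clusters (0.166%). They were 7 USP17L clusters, 3 REXO1L clusters, a DEFB105B cluster, a SPDYE16 cluster and the POTEB3 cluster 7977456. The DEFB105B cluster carries a beta-defensin, SPDYE16 belongs to a family that activates cyclin-dependent kinases, and POTEB3 is an ankyrin-repeat gene. A fall at every step in experiment 3 was seen in 1 member, compared with 9.87% of all clusters.

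Most other families had medians near the untreated level in experiments 1 and 2 and above it in experiment 3. Over all 184 members the median difference at high dose was −0.03, 0.09 and 0.66 in experiments 1, 2 and 3. Over all distinct clusters it was −0.01, 0.02 and 0.04. The family medians of experiment 3 were 1.26 for POTE, 0.86 for PRAMEF, 0.80 for FAM90A, 0.66 for DEFB, 0.66 for SPDYE, 0.64 for GOLGA8, 0.27 for GOLGA6, 0.10 for NBPF and −0.44 for TBC1D3. The level of a cluster moved with its change on that array. There the median was 0.23 for the 25% of clusters with the lowest levels and −0.19 for the 25% with the highest, and its part in the family medians was not tested. Without the high-dose array of experiment 3, the median over all members was 0.05, while that of USP17L was 0.53 and that of REXO1L 0.54.

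**Figure D2:**
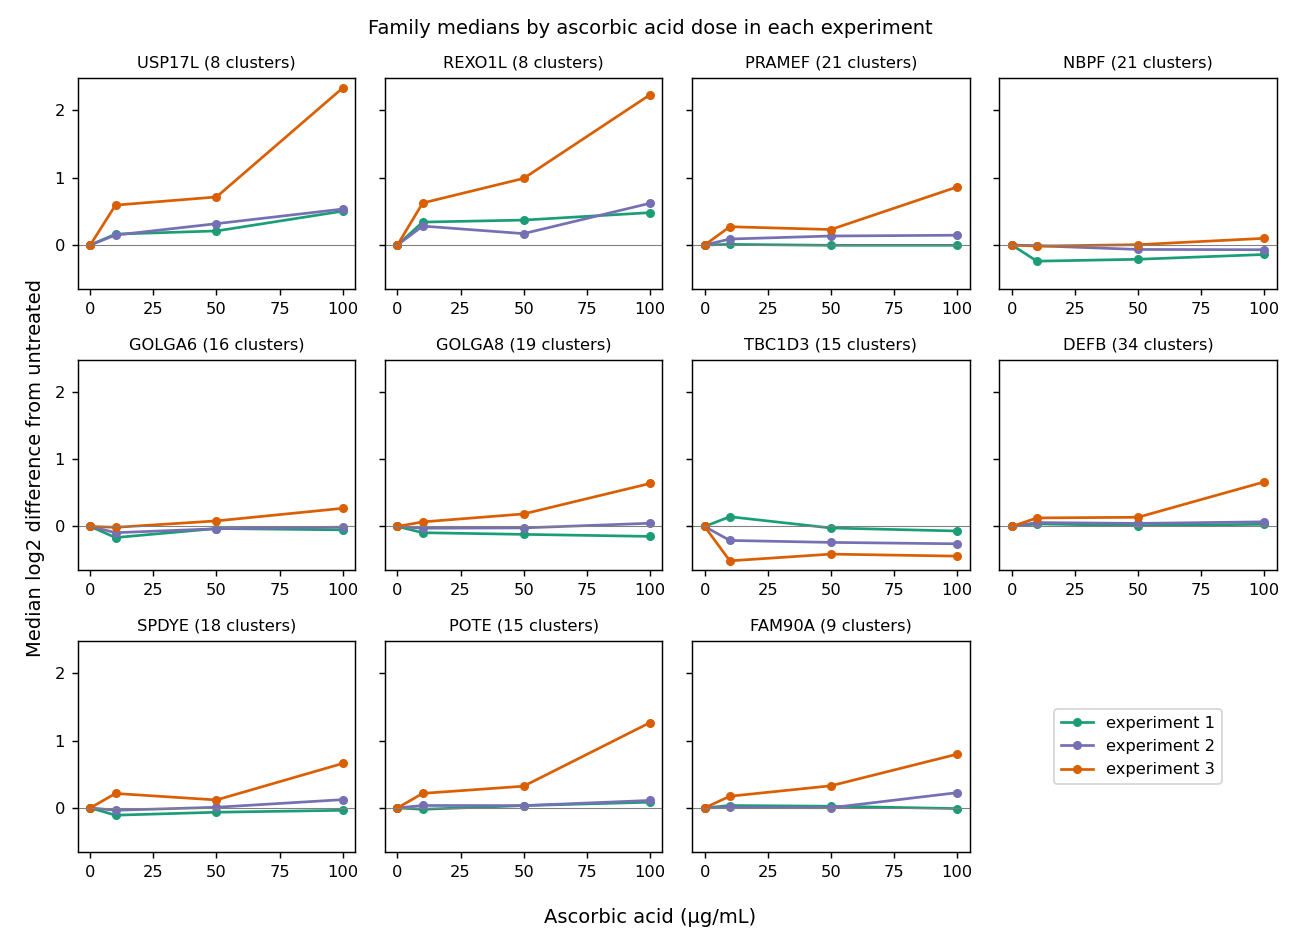
Median log2 difference from the untreated array of the same experiment (vertical axis) against the AA concentration in µg/ml (horizontal axis) in each family. Each line is 1 experiment and each point a median over the distinct clusters of the family. USP17L and REXO1L are above 0 at every dose in every experiment, whereas the remaining families with positive medians in experiment 3 lie between −0.15 and 0.23 in experiments 1 and 2 at high dose.

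At high dose, 60 of the 184 members were higher than untreated in all 3 experiments, and 17 were lower. Among all clusters, 14.8% were higher and 11.5% lower. Members higher in all 3 experiments numbered 8 of 8 in USP17L, 8 of 8 in REXO1L, 11 of 15 in POTE, 14 of 34 in DEFB, 5 of 21 in PRAMEF, 5 of 18 in SPDYE, 4 of 9 in FAM90A, 3 of 16 in GOLGA6, 1 of 21 in NBPF, 1 of 15 in TBC1D3 and 0 of 19 in GOLGA8. PRAMEF genes encode leucine-rich repeat proteins of the PRAME family known from the germline and tumours. FAM90A is a primate family without a settled function.

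**Figure D3:**
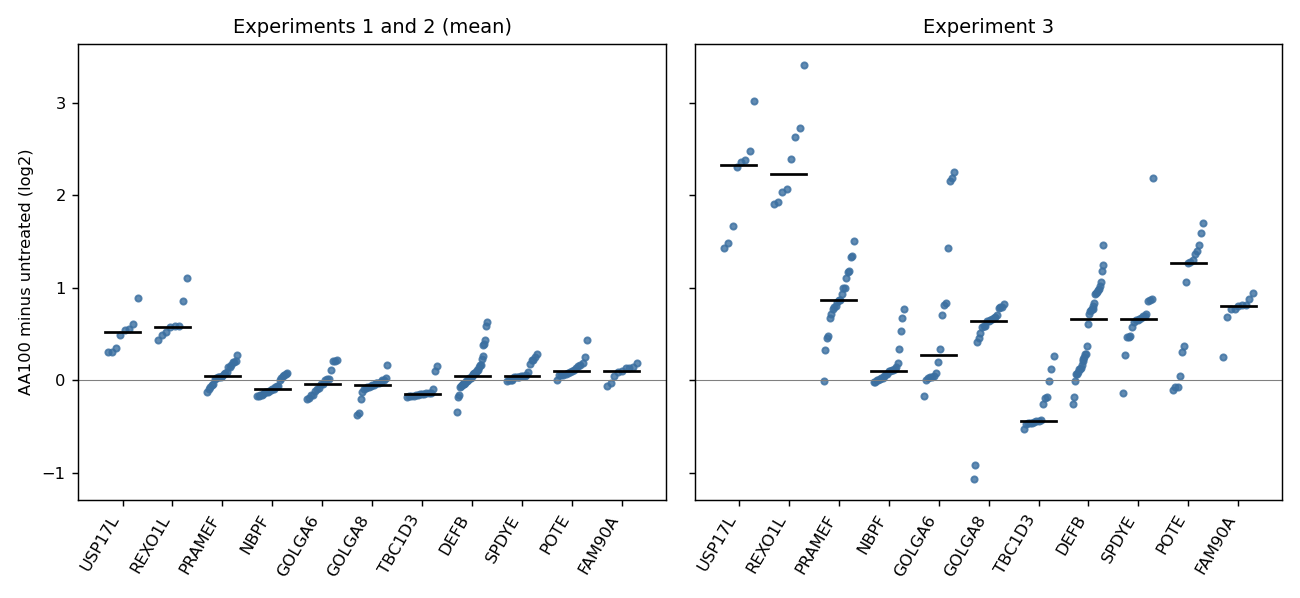
Log2 difference of high-dose AA from untreated for each distinct member cluster, as the mean of experiments 1 and 2 (left) and in experiment 3 (right). Points are clusters, ordered by value within a family, and black bars are family medians. The USP17L and REXO1L clusters all lie above 0 in both panels, and the lowest points on the right, −1.07 and −0.92, are the GOLGA8A and GOLGA8B clusters.

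Families were not uniform, and the subgroups below were formed from gene symbols after the values had been seen. GOLGA8 encodes golgin-like coiled-coil proteins. The 2 clusters of GOLGA8A and GOLGA8B, the brightest of the family with a mean untreated level of 9.37, lay below every untreated array at high dose, as did 3.69% of all clusters. Cluster 7987248 read 9.38, 9.52 and 9.51 in untreated cells. With low-dose AA it read 9.19, 9.22 and 8.70, with intermediate-dose AA 9.20, 9.23 and 8.92, and with high-dose AA 9.06, 9.08 and 8.44. The differences at high dose were −0.32, −0.44 and −1.07.

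The other 17 GOLGA8 clusters, which include GOLGA8K and GOLGA8J copies, had median differences of −0.15, 0.05 and 0.65, and in experiment 3 each of them was higher than untreated, by 0.41 to 0.82. Their untreated levels ran from 5.29 to 9.08. A cluster was placed in the GOLGA8A and GOLGA8B group if it carried GOLGA8A among few symbols and without GOLGA8R. Any other cluster carrying GOLGA8A was counted among these 17. The printed promoter of GOLGA8B belongs to the group that was lower, and those of GOLGA8K and GOLGA8J to the group that was higher in experiment 3. POTE promoters with more than 20 CG dinucleotides, however, belong to a subgroup that was higher in that experiment. A link of promoter sequence with direction was not tested.

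GOLGA6, a related golgin family, divided into 3 levels of change. The 4 clusters of GOLGA6L1, GOLGA6L6 and GOLGA6L22 had a median of 2.17 in experiment 3, but of 0.01 and 0.41 in experiments 1 and 2. The GOLGA6L6 cluster 7986736 read 5.70, 5.56 and 5.54 untreated and 5.70, 5.96 and 7.79 with high-dose AA. Its high-dose array of experiment 1 was level with the highest untreated array, and those of experiments 2 and 3 were above it. The 3 clusters of GOLGA6A, GOLGA6B and GOLGA6C had 0.81 in experiment 3. The 8 brighter clusters of GOLGA6L4, GOLGA6L9 and GOLGA6L10 had −0.11, −0.15 and 0.03, and the GOLGA6L2 cluster had 0.34 in experiment 3.

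POTE genes encode ankyrin-repeat proteins of the germline and some tumours, and POTEE, POTEF and their relatives end in a part that resembles actin. The 5 clusters of this actin-like kind were bright (9.76 to 13.33 untreated) and had median differences of 0.06, 0.06 and −0.07. The brightest, POTEF cluster 8055151, read 13.36, 13.28 and 13.35 untreated and 13.41, 13.34 and 13.24 with high-dose AA. Whether these clusters also read transcripts of the actin genes was not tested.

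The 9 clusters of POTEB, POTEC, POTED, POTEG and POTEH were dim (4.82 to 6.09) and had medians of 0.09, 0.20 and 1.37. Symbols do not fully separate them from the actin-like kind, since cluster 8022428 also carries POTEE, POTEF, POTEJ and POTEM. The POTEB3 cluster 8022428 read 5.94, 6.20 and 6.12 untreated, 6.27, 6.16 and 6.57 with low-dose AA, 6.22, 6.31 and 6.57 with intermediate-dose AA, and 6.40, 6.61 and 7.48 with high-dose AA. All 3 high-dose arrays and all 3 intermediate-dose arrays of this cluster were above the untreated ones.

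**Figure D4:**
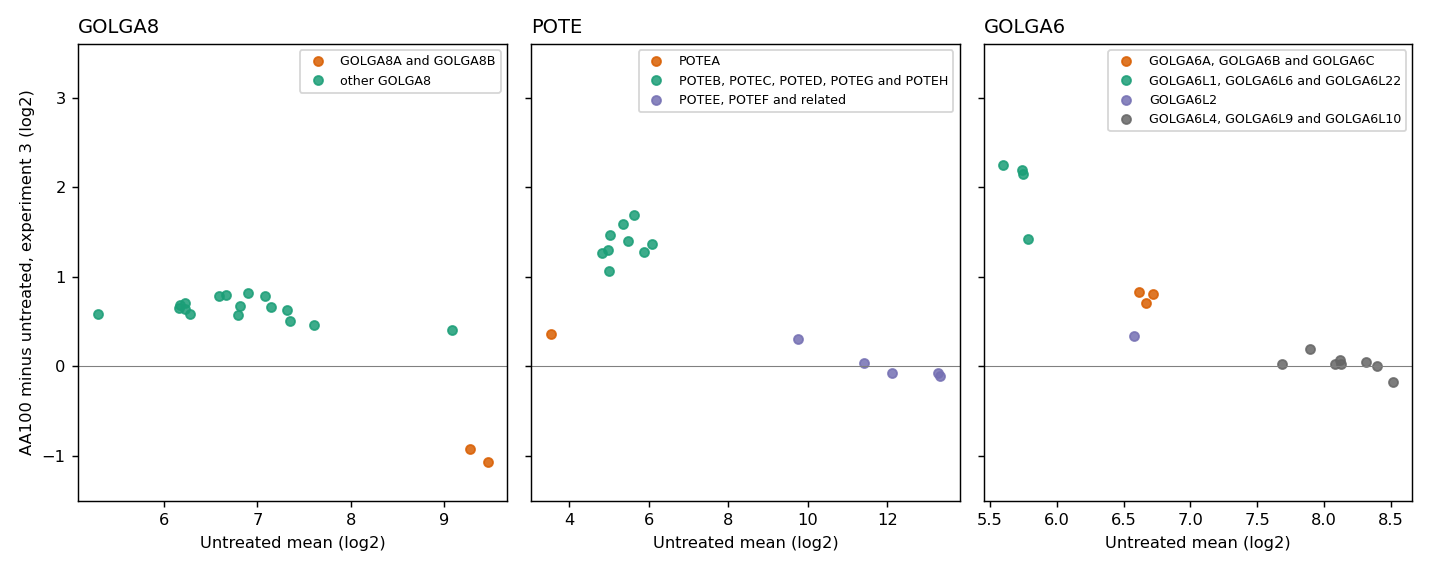
Log2 difference of high-dose AA from untreated in experiment 3 (vertical axis) against the mean untreated log2 level (horizontal axis, with a scale of its own in each panel) for the distinct clusters of GOLGA8, POTE and GOLGA6. Points are clusters and colours are subgroups named from gene symbols. In each family the subgroup with the highest untreated levels has the lowest differences.

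DEFB genes encode beta-defensins, secreted antimicrobial peptides of epithelia. With 25 of 34 clusters in the dimmest 25% of the array, they were the weakest family, with a median untreated level of 4.30. In the RefSeq gene order, 11 DEFB clusters had a gene within 10 genes of a USP17L or FAM90A gene. These 11 had medians of 0.22, 0.11 and 0.95 at high dose, compared with −0.03, 0.06 and 0.28 in the other 23. Both values are descriptions, and 10 of the 11 neighbouring clusters carried several symbols while all 23 others carried 1.

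The DEFB109B cluster 8149358, whose symbols are DEFB109B and DEFB109A, had the largest DEFB difference averaged over the experiments, 0.78. In experiment 3 alone, where it differed by 1.18, DEFB108B (1.47) and the DEFB107B cluster (1.25), named after their values were seen, differed more. It read 5.54, 6.07 and 6.06 untreated, 6.02, 6.30 and 6.30 with low-dose AA, 5.87, 5.81 and 6.99 with intermediate-dose AA, and 6.07, 6.71 and 7.24 with high-dose AA. The high-dose array of experiment 1 was level with the highest untreated array. DEFB124, the brightest DEFB cluster (untreated mean 7.25), differed by −0.40, 0.03 and 0.93, and DEFB1, a defensin made by many epithelia, by −0.19, 0.06 and −0.18.

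In SPDYE, whose members are named after the Speedy activators of cyclin-dependent kinases, SPDYE7P had the largest difference. It read 7.46, 7.48 and 6.84 untreated and 7.59, 7.86 and 9.02 with high-dose AA. The difference of 2.18 in experiment 3 thus began from the lowest untreated value of the cluster, beside 0.13 and 0.38 in experiments 1 and 2. SPDYE3 was the only one of the 18 SPDYE clusters with a mean difference below 0, with 0.37, −0.26 and −0.14.

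PRAMEF clusters were all higher on average at high dose (21 of 21), though only 8 of 21 were so in experiment 1. Of all 28380 distinct clusters, 15366 were higher on average and 13661 in experiment 1. The PRAMEF15 cluster 7912582 had the largest mean difference, 0.68, with 0.12 and 0.42 in experiments 1 and 2. PRAMEF8, the brightest cluster of the family, went from −0.39 in experiment 1 to 0.68 in experiment 3. The 9 FAM90A clusters lay close together, with untreated levels from 6.49 to 6.88, and all were higher in experiments 2 and 3 but only 4 in experiment 1. Among all distinct clusters, 15712 were higher in experiment 2 and 15532 in experiment 3.

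NBPF and TBC1D3 had the lowest medians in experiment 3. NBPF genes, made of repeated domains and expanded in the human lineage, were bright, with a median untreated level of 11.08. The NBPF25P cluster 7904569 read 13.01, 12.89 and 12.90 untreated and 12.90, 12.80 and 12.93 with high-dose AA. The 15 NBPF clusters with NBPF10 among their symbols had medians of −0.16, −0.09 and 0.05 at high dose, and the 6 others −0.08, 0.14 and 0.43. In experiment 3, 19 of the 21 clusters were higher than untreated, as were 15532 of all 28380 distinct clusters.

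TBC1D3 is a hominoid family whose TBC domain is known from regulators of Rab GTPases. Its 11 clusters of TBC1D3 copies had medians of −0.07, −0.26 and −0.45. At low dose these were 0.15, −0.21 and −0.53, and at intermediate dose −0.01, −0.24 and −0.43. The medians were thus lower at each higher dose in experiments 1 and 2, and in experiment 3 the low dose had the lowest. All 11 clusters were lower than untreated at high dose in all 3 experiments, as were 11.5% of all clusters. Cluster 8019655 read 8.65, 9.32 and 9.27 untreated and 8.61, 9.06 and 8.80 with high-dose AA. It was lower in each experiment, by 0.04, 0.26 and 0.47, although the untreated array of experiment 1 lay within the range of the high-dose arrays. TBC1D30, TBC1D31 and TBC1D32, with the median values 0.13, 0.07 and −0.01, are given apart from these.

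In the fit across all clusters (limma), 0 of 184 members passed the study's threshold of an unadjusted p of 0.001 at low, intermediate or high dose. Of all distinct clusters, 0.0211%, 0.0317% and 0.257% passed at these doses. At an unadjusted p of 0.05, 3, 2 and 56 members passed, compared with 2.52%, 2.34% and 10.7% of all clusters, and 54 of the 56 were higher (7.08% of all clusters). The 3 and 2 members at low and intermediate dose are thus near or below the background share. With the experiment as a block, 8 members passed 0.001 at high dose (6 higher, 2 lower) as did 0.638% of all clusters. They were both GOLGA8A and GOLGA8B clusters, both REXO1L1P clusters, and 1 cluster each of USP17L, POTEB3, SPDYE16 and DEFB105B. These counts describe the contrast by which the families were chosen and support nothing about them.

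IFN-α, a comparison that the choice of families did not use, gave no member past the threshold. Of the 184 members, 0 passed an unadjusted p of 0.001 in limma, while 0.278% of all clusters did, and 0 passed an unadjusted p of 0.05, while 1.38% of all clusters did. The comparison shares its untreated arrays with those of AA. Mean differences of members ran from −0.22 to 0.51, with a median standard error of 0.15. Within a cluster the fit gives IFN-α and high-dose AA the same standard error. At high dose, USP17L cluster 8094134 differed by 1.60 (unadjusted limma p of 0.0031) and REXO1L1P cluster 8151629 by 1.88 (unadjusted limma p of 0.0042). IFN-α changes of that size would thus not have passed 0.001 there, and the count of 0 says little about such clusters. The median over members was −0.01, −0.01 and 0.05 in experiments 1, 2 and 3.

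The DEFB109B cluster had the smallest p for IFN-α. It read 6.67, 6.21 and 6.31 with IFN-α, above all untreated arrays (5.54, 6.07 and 6.06), and 2.61% of all clusters were separated in this way. Its mean difference was 0.51 ± 0.31 (standard error), with an unadjusted limma p of 0.12, and the difference was 1.13 in experiment 1, 0.15 in experiment 2 and 0.24 in experiment 3. DEFB133 followed with 0.11 ± 0.08 (unadjusted limma p of 0.18) and the GOLGA6L3P cluster 7990894 with 0.15 ± 0.11 (unadjusted limma p of 0.19). After Benjamini-Hochberg adjustment over all clusters, these values rounded to 1.

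USP17L medians under IFN-α were 0.01, 0.10 and 0.12, and REXO1L medians 0.07, −0.00 and 0.11. The top USP17L cluster 8094134 read 7.41, 7.29 and 7.45, within 0.18 of its untreated arrays, and the REXO1L1P cluster 8151629 read 7.17, 7.67 and 7.61. In both clusters the IFN-α values were under every high-dose AA value. TBC1D3 medians changed sign between experiments (0.24, −0.02 and −0.27), whereas FAM90A medians were −0.08, −0.19 and −0.15, with 6 of 9 clusters lower in all 3 experiments, compared with 11.7% of all clusters. Without the high-dose AA array of experiment 3 in the fit, which shares its spread with all groups, 0 members passed 0.05 and the smallest p was 0.057 in limma, for a FAM90A10 cluster at −0.22. With the experiment as a block as well, that cluster alone passed (unadjusted limma p of 0.031), 0.543% of members, compared with 3.51% of all clusters.

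**Figure D5:**
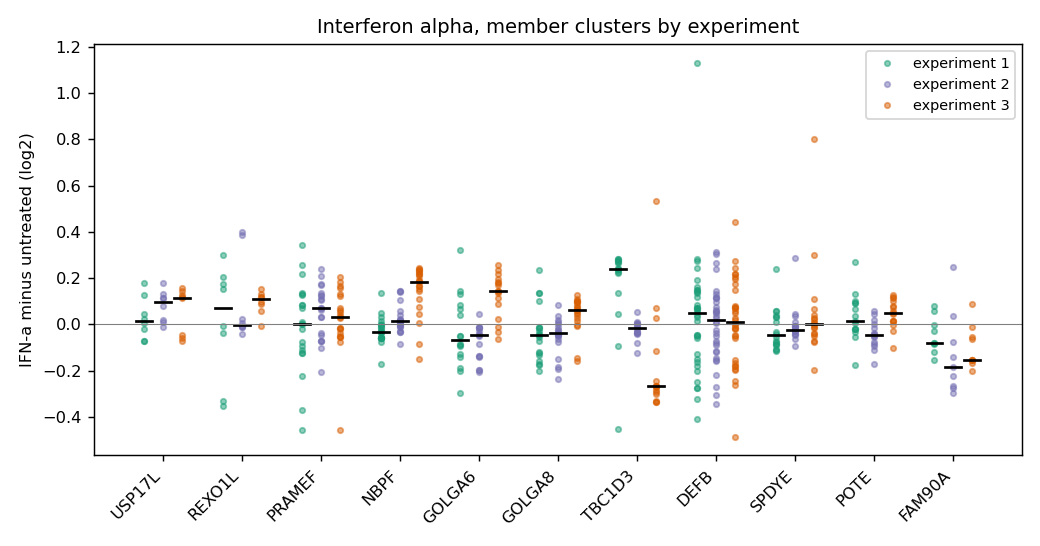
Log2 difference of IFN-α (1000 IU/ml) from the untreated array of the same experiment for each distinct member cluster, by family. Points are clusters, coloured by experiment, and black bars are medians per experiment. Family medians lie between −0.27 and 0.24, and the highest point, 1.13, is DEFB109B in experiment 1.

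Further multicopy families that do not carry the 11 prefixes gave a comparison list of 229 distinct clusters. It was formed from chosen prefixes such as GAGE, MAGEA, SSX, KRTAP and TRIM49. TRIM49 clusters are also in the DUX4 list given next, so these lists are not separate. Its median at high dose was −0.13, 0.07 and 0.48 in experiments 1, 2 and 3, with 42 clusters (18.3%) higher in all 3. In 39 clusters of early embryonic genes known to respond to the factor DUX4, a list that also holds DUX4 itself, the medians were 0.02, 0.07 and 0.65. Of these, 17 clusters (43.6%) were higher in all 3 and 3 were lower. The 3 lower ones all carried the same symbols, TRIM43 and TRIM43B, among them 8043574 with −0.32, −0.30 and −0.37. At an unadjusted limma p of 0.001, 0 clusters of this list were higher and 3 lower, while 0.257% of all clusters passed. At an unadjusted limma p of 0.05, 15 were higher and 3 lower (46.2%), while 10.7% of all clusters passed. Outside USP17L and REXO1L, the remaining 168 members had −0.04, 0.07 and 0.59, with 44 (26.2%) higher in all 3 experiments.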

How the data were processed

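Total RNA of MT-2 cells was hybridised to Affymetrix Human Gene 1.0 ST arrays. The authors computed RMA values with the xps package (background correction, quantile normalisation, summary per cluster), and the deposited values are log2 levels, 1 column per array. A genome build was not given in the sources used here. Values were used as deposited, and the number of arrays limits the precision. Groups came from the sample titles. Differences were tested with limma 3.58.1 (R 4.3.3, statmod 1.5.0) in 1 fit over 5 groups and all 28926 clusters, with Benjamini-Hochberg adjustment over all of them, and counts were made over distinct rows. Of all clusters, 19310 had 1 gene symbol, 1752 several and 7864 none in the platform annotation.

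Members, subgroups and lists were chosen with earlier results of these data known. Named clusters were the brightest and the most positive and most negative at high dose in each family, the 3 with the smallest IFN-α p, and all USP17L and REXO1L clusters. The titles' tags pair the arrays by experiment. Arrays with the same tag deviated together from their group means (median r = 0.28 over 30 pairs, −0.17 over 60 other pairs, 25 and 6 of them over 0.1), so the value with the experiment as a replicate block is given where it changes a call. On simulated arrays for IFN-α with 28926 clusters, 64 of 100 changes of 0.5 and 95 of 100 changes of 1 on the log2 scale were called at 0.001. These changes were added to clusters drawn from all clusters, not to members, so the shares need not hold for members. Other settings were a fixed or random replicate block, trended variance, array weights, cyclic loess, filters, and leaving out arrays. Figures were drawn with matplotlib 3.10.9 under Python 3.11.15.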

Additional observations from a re-analysis of the deposited data

How the results depend on the processing

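The count of members passing 0.001 at high dose, 0 in the fit without a block, depended on the setting. It was 8 with a fixed replicate block, 2 with a random replicate block, 28 with array weights (7.17% of all clusters also passed, and the weight iteration stopped before convergence), and between 0 and 9 when 1 array was left out: 9 without the AA100 array of experiment 1, 2 without that of experiment 2 and 0 without that of experiment 3. A fixed replicate block with the AA100 array of experiment 3 left out, chosen after seeing the data, gave 1 at low dose, 4 at intermediate dose and 11 at high dose, compared with 0.197%, 0.282% and 0.430% of all clusters, and all of these were higher. The cause was not tested. For IFN-α the count was 0 in every setting run, and the replicate block changed no other call. Array weights gave 4 members at an unadjusted p of 0.05 for IFN-α. The USP17L median over experiments at high dose was 1.12 and ranged from 0.52 to 1.45 when arrays were left out. For REXO1L it was 1.12, and ranged from 0.54 to 1.53, and for all members 0.21, and ranged from 0.03 to 0.38. Medians for IFN-α ranged from −0.02 to 0.01. The GOLGA6 median was −0.00 but its mean 0.21. The 13 members rising at every step in all 3 experiments were 13 with cyclic loess and 13 without experiment 3.

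Values of 3 arrays a group, 1 cell line and probes shared between copies limit what can be assigned to a locus, and 33 of the 184 members were in the dimmest 25% of the array.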
